A study of Mus musculus with 18 samples.

Results

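Poly(A)-selected RNA was sequenced from the cerebral cortex of BALB/c mice on day 2 after ischemic injury and from the cortex of control mice, with 3 libraries in each group. These 6 libraries, of 18 in a study of brain and skull bone after ischemia, were chosen by their labels, and every gene of the count table was kept, with identical copies of a gene name counted once. Cortex on day 6 after injury (3 libraries) and skull, the interparietal bone, on day 2 and from controls (3 libraries each) served for 2 further comparisons. Per the labels, the tissue held the ischemic and the peri-ischemic region together, and the strain was the same in all groups. No artery, length of occlusion, sham operation, age or sex is stated in the labels, nor whether a library is 1 animal or a pool.

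When the blood supply of the cortex fails, neurons of the core die within hours, and dying cells release molecules that Toll-like and cytokine receptors recognise. Microglia and astrocytes respond first, endothelial cells then display adhesion molecules, and neutrophils and monocytes follow chemokines into the tissue. Around day 2 these events overlap with swelling, with the division of glia and with a loss of activity in the neurons that survive. Bulk RNA from such tissue mixes all these cells, so that fewer cells of a type and less RNA per cell cannot be told apart.

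Total counts per library were 17199036 to 18476057 on day 2 and 23673255 to 27654269 in controls, and 22992 to 23189 genes had a count on day 2 against 22155 to 22540 in controls. Levels below are CPM, read counts relative to the total of the library after edgeR's TMM scaling, and they are not divided by transcript length, so that levels of different genes are not compared. A change is the log2 of day 2 over control ± its standard error from edgeR, and a gene is said to have risen or fallen where its adjusted p lay below 0.05. Haemoglobin genes took up 0.00254% to 0.00391% of reads on day 2 and 0.00676% to 0.00739% in controls, and ribosomal RNA of the locus CT010467.1 stood at 835, 2188 and 651 CPM on day 2 and 187, 230.3 and 147 CPM in controls. The genes of the Y chromosome Ddx3y, Uty, Kdm5d and Eif2s3y were expressed in both groups and did not pass the test, and Xist was near 0 in both. Of 9 red cell and platelet genes 1 rose and 2 fell, against 14.7% and 9.99% of all genes tested. Those that fell were the haemoglobin chains Hba-a1 (-1.31 ± 0.14) and Hbb-bs (-1.22 ± 0.14). Bone and skeletal muscle genes summed to 26.2, 38.9 and 28.8 CPM on day 2 and 26.1, 38.9 and 35.5 CPM in controls. Eif2s3y passed without the first day 2 library (adjusted p = 0.0289).

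Levels of genes of neighbouring tissue differed between libraries of the same group, and the cause was not tested. Striatal and hippocampal neuron genes, which include the dopamine receptor Drd1 and the signalling protein Ppp1r1b of striatal projection neurons, summed to 610.2, 519.9 and 2086 CPM on day 2 and 645, 1115 and 1380.0 CPM in controls, so that the third day 2 library stood highest and the first control library stood with the other day 2 libraries. Choroid plexus genes summed to 28.0, 247 and 27.0 CPM on day 2 and 48.8, 49.5 and 30.3 CPM in controls, and the high value of the second day 2 library came from the thyroxine carrier Ttr at 1.94, 202 and 4.10 CPM on day 2 against 24.3, 22.6 and 15.0 CPM in controls. Without that library Ttr was lower on day 2, with a log2 change of -2.76 (adjusted p = 6.84e-04). Of the first list 1 of 21 tested members passed as higher and of the second 3 of 12, against 14.7% of all genes, and no member of either passed as lower. Counts that move with 1 library are also given without it.

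Of 18151 genes tested, 4485 (24.7%) differed between day 2 and control cortex, 2671 (14.7%) higher and 1814 (9.99%) lower. The 3 day 2 and the 3 control libraries did not overlap for 39.0% of all genes tested. The rises were large and the falls small. Of the genes that rose, 755 did so at least 4-fold and 302 more than 10-fold, and 504 had a mean below 1 CPM in controls, whereas 19 genes fell at least 4-fold. Among genes with at least 20 CPM in controls the balance was the other way, with 813 higher and 1529 lower. The risen genes together took up 11.6% to 14.2% of reads on day 2 and 6.11% to 6.88% in controls, and the fallen genes took up 23.1% to 24.5% on day 2 and 30.6% to 32.8% in controls. Without the third day 2 library 2226 genes were higher and 1387 lower, and without the second 2159 and 1450. Without the second control library 2068 and 1153 were called, and without the third control library 2005 and 1131.

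**Figure D1:**
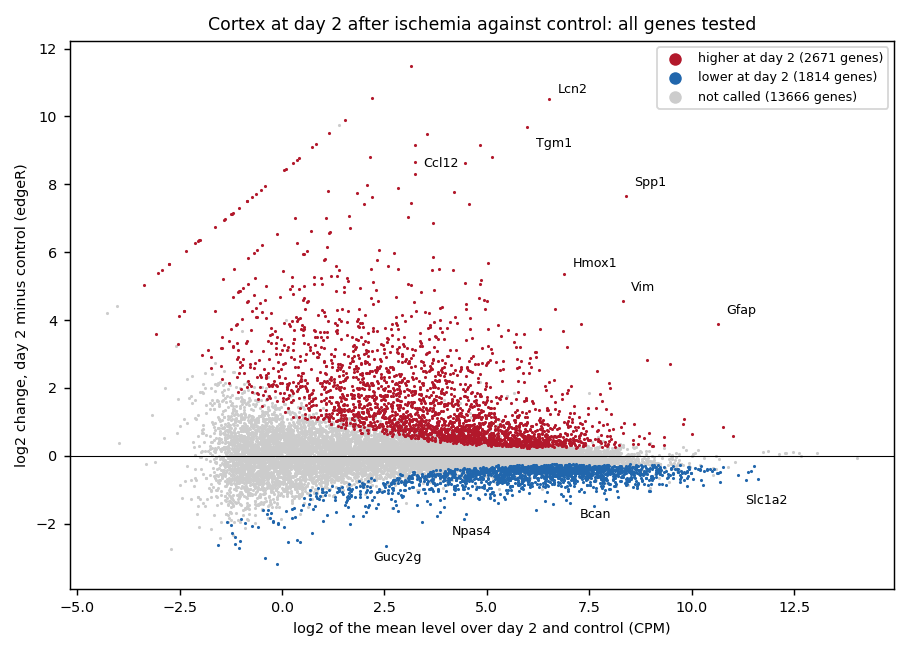
Each point is a gene tested, with the log2 of its mean level in CPM on the horizontal axis and its log2 change between day 2 and control on the vertical axis. Risen genes (2671, red) spread up to changes above 8, fallen genes (1814, blue) lie mostly at high levels with changes between 0 and -2, and the straight row of points at the upper left are genes with no count in controls, whose fitted change depends on the prior count.

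The largest gain in reads was that of the astrocyte filament gene Gfap (chromosome 11, 102887336 to 102900912, mm10), at 2458, 3303 and 3185 CPM on day 2 against 268, 196 and 147 CPM in controls (log2 change 3.87 ± 0.22, adjusted p = 1.78e-06). Spp1, the secreted phosphoprotein osteopontin made by phagocytes and other cells (chromosome 5, 104435118 to 104441050), stood at 469, 718 and 814 CPM on day 2 against 3.39, 2.90 and 3.66 CPM in controls (7.65 ± 0.78, adjusted p = 7.19e-04). The filament gene Vim, which immature and reactive glia express (chromosome 2, 13573927 to 13582826), stood at 473, 741 and 616 CPM on day 2 against 32.2, 23.9 and 21.2 CPM in controls (4.57 ± 0.36, adjusted p = 7.47e-05). In each of these the lowest day 2 library lay far above the highest control library, though absence of overlap was a condition for naming them. The other named genes among the 10 largest gains rose less in proportion from a high level. These were the iron store Fth1 (0.85 ± 0.14), the translation factor Eef1a1 (0.59 ± 0.10), the lysosomal protease Ctsb (1.09 ± 0.24), the actin-binding peptide Tmsb4x (0.93 ± 0.11), the cytoskeletal actin Actb (0.66 ± 0.12), the lipid carrier Apod (2.15 ± 0.11) and the nuclear RNA Neat1 (1.99 ± 0.25), with adjusted p of 0.0105 for Ctsb and at most 0.00130 for the others. Fth1, Eef1a1, Tmsb4x and Actb have processed copies elsewhere in the genome, so that reads could be split among them. Ctsb did not pass without the second day 2 library (adjusted p = 0.0519).

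The largest losses were those of genes for synapses and for the astrocytes that surround them. Slc1a2, the main glutamate transporter of astrocytes (chromosome 2, 102658659 to 102790784), stood at 2571, 2006 and 2644 CPM on day 2 against 3988, 3586 and 3939 CPM in controls (-0.67 ± 0.11, adjusted p = 6.21e-04). Snap25, a protein of the machinery that fuses synaptic vesicles (chromosome 2, 136713453 to 136782428), stood at 2087, 1542 and 2179 CPM on day 2 against 2351, 3476 and 3770.1 CPM in controls (-0.72 ± 0.17, adjusted p = 0.00796). The groups did not overlap in either gene, which was a condition for naming them here. The kinase of dendritic spines Camk2a changed by -0.48 ± 0.09, its inhibitor Camk2n1 by -0.77 ± 0.15, the postsynaptic protein Nrgn by -0.87 ± 0.20, the axonal motor Kif5a by -0.43 ± 0.12, the astrocyte glycoprotein Sparcl1 by -0.57 ± 0.10, the calcium sensor of vesicles Syt1 by -0.52 ± 0.11 and the adhesion protein Clstn1 by -0.71 ± 0.11, with adjusted p from 4.65e-04 to 0.0156. Kif5a did not pass without the second or the third control library (adjusted p 0.0613 to 0.0673).

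The rises best separated from the spread between libraries were those of Ifi202b, Fcrls, Osmr, Apod, Dhrs1 and Ccl12. Ifi202b, an interferon-inducible protein of the p200 family, stood at 14.7, 18.6 and 19.5 CPM on day 2 against 0.126, 0.0372 and 0.125 CPM in controls (7.46 ± 0.34, adjusted p = 6.44e-08). Fcrls, a scavenger-type receptor of mouse microglia, stood at 59.9, 65.0 and 51.8 CPM on day 2 against 6.49, 5.88 and 6.45 CPM in controls (3.23 ± 0.16, adjusted p = 7.61e-08). Apod stood at 431, 429 and 375 CPM on day 2 against 98.0, 94.0 and 85.4 CPM in controls. The reductase Dhrs1 stood at 182, 243 and 221 CPM on day 2 against 52.7, 52.1 and 51.3 CPM in controls. No day 2 value came near a control value in any of them, which the choice by smallest p favours. The falls best separated were those of Bcan, Gucy2g, Nrep, Lingo1, Egr3 and Lgi2. Bcan, the proteoglycan brevican of the matrix around synapses, stood at 98.4, 115 and 107 CPM on day 2 against 225, 229 and 220.3 CPM in controls (-1.07 ± 0.09, adjusted p = 2.74e-06). Gucy2g, a membrane guanylyl cyclase, stood at 1.16, 1.69 and 1.89 CPM on day 2 against 8.34, 11.1 and 10.4 CPM in controls (-2.65 ± 0.23, adjusted p = 5.15e-06). Nrep, a neuronal protein linked to regeneration, changed by -1.38 ± 0.12, the inhibitor of axon growth and myelination Lingo1 by -1.26 ± 0.11, and the secreted synaptic protein Lgi2 by -1.12 ± 0.11.

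**Figure D2:**
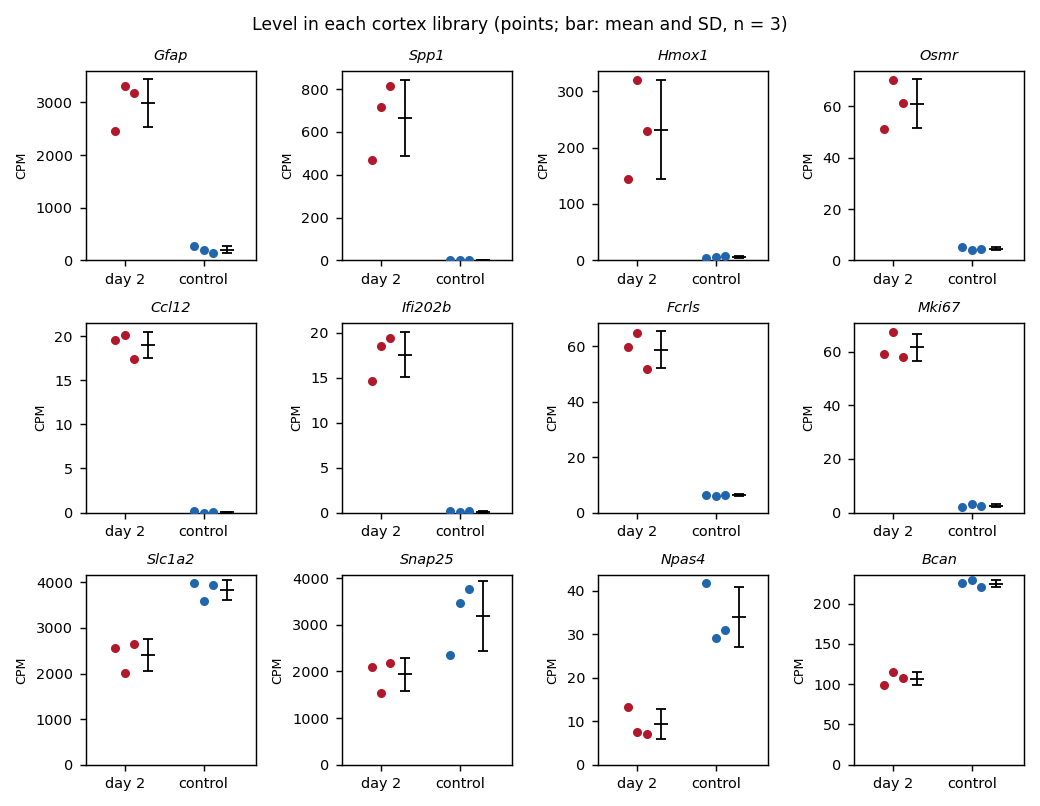
Levels in CPM of 12 genes in the 3 day 2 and the 3 control cortex libraries, each point a library and each bar the mean with its SD. In the first 8 genes every day 2 library lies above every control library, and in Slc1a2, Snap25, Npas4 and Bcan every day 2 library lies below.

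Cytokine genes, many of them near 0 in controls, rose together with genes of their receptors and transducers. Of 20 cytokine ligands tested of the IL-6, IL-1, TNF, colony-stimulating and interferon families, 10 rose and 0 fell, against 14.7% and 9.99% of all genes, and the median log2 change was 1.81 against 3.54e-04 over all genes tested. Tnf, the inflammatory cytokine that opens the NF-kappaB pathway, had no count in controls and 2.05, 2.67 and 2.48 CPM on day 2, so that it was at least 60.0-fold higher over the group floor of 3 counts (adjusted p = 3.02e-05). Il1b, the fever cytokine released by inflammasomes, stood at 4.04, 11.3 and 6.52 CPM on day 2 against 0.419, 0.112 and 0.916 CPM in controls (3.93 ± 0.55, adjusted p = 2.74e-04). Several ligands that signal through the receptor chain Il6st rose. Clcf1 stood at 20.1, 34.2 and 31.2 CPM on day 2 against 1.13, 1.60 and 1.33 CPM in controls (4.38 ± 0.27, adjusted p = 2.49e-07). Lif changed by 4.13 ± 0.69 and Il11 by 2.95 ± 0.45. Il6 itself stood at 0.665, 0.923 and 1.19 CPM on day 2, with 2 counts in the 3 controls together, and was 34.7-fold (95% counting interval 9.12 to 294) higher. The oncostatin gene Osm had 1.21 ± 0.168 CPM on day 2 and 0.0372 ± 0.0644 CPM in controls and was 30.2-fold (95% counting interval 9.91 to 150.1) higher. The alarmin Il33, which astrocytes and oligodendrocytes hold in their nuclei, stood at 55.3, 73.0 and 75.3 CPM on day 2 against 18.1, 13.6 and 12.4 CPM in controls (2.21 ± 0.23), and the growth factor of microglia Csf1 changed by 1.70 ± 0.21. Il1rn, the natural antagonist of IL-1, had no count in controls and 2.88, 5.79 and 7.01 CPM on day 2 and did not pass the test (adjusted p = 0.0629). In a fit of the day 2 and control libraries alone its adjusted p was 8.09e-05, and its day 6 libraries, which enter the same fit as the other cortex libraries, stood at 0.309, 16.3 and 7.84 CPM. The regulatory cytokine Il10 and the cytokine subunit Il12b, both with no count in controls, were too low to be tested. Il1rn passed by DESeq2 (adjusted p = 1.86e-06).

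Receptor chains rose in 24 of 32 cases and fell in none of those tested (median 1.70). The receptor of oncostatin M, Osmr (chromosome 15, 6813577 to 6874969), stood at 51.3, 70.4 and 61.4 CPM on day 2 against 5.07, 4.05 and 4.62 CPM in controls (3.74 ± 0.19, adjusted p = 7.61e-08), and the shared chain Il6st changed by 0.76 ± 0.10 and the IL-6 receptor Il6ra by 1.65 ± 0.25. The receptor of leukemia inhibitory factor, Lifr, stood at 60.1 ± 9.30 CPM on day 2 and 60.1 ± 2.28 CPM in controls, and the chain Cntfr of the ciliary factor changed by -0.35 ± 0.13, neither past the threshold. The pair of receptors of TNF both rose, Tnfrsf1a by 2.72 ± 0.30 and Tnfrsf1b by 2.68 ± 0.25, as did the receptor Tnfrsf12a of the TNF-like ligand TWEAK (2.48 ± 0.29) and the death receptor Fas (3.19 ± 0.42). For IL-1, the signalling chain Il1r1 changed by 2.24 ± 0.22 and the decoy Il1r2 by 2.35 ± 0.52, while the accessory chain Il1rap did not pass the test (0.19 ± 0.12). The granulocyte factor receptor Csf3r stood at 29.4, 46.9 and 37.1 CPM on day 2 against 8.84, 6.32 and 7.08 CPM in controls (2.35 ± 0.20, adjusted p = 5.70e-06), the shared chain Csf2rb changed by 3.85 ± 0.39, and its mouse duplicate Csf2rb2, with which reads may be shared, by 3.67 ± 0.31. The IL-4 receptor Il4ra (2.74 ± 0.28) and its partner Il13ra1 (2.40 ± 0.22) rose too. Cntfr passed without the second day 2 library or with RLE factors or by DESeq2 (adjusted p 0.00551 to 0.0498).

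Inside the cell, 11 of 23 genes of the JAK-STAT pathway rose, against 14.7% of all genes. Socs3, the feedback inhibitor of IL-6 type receptors, stood at 31.2, 46.9 and 44.2 CPM on day 2 against 4.31, 3.50 and 3.66 CPM in controls (3.41 ± 0.23, adjusted p = 9.09e-07), and Stat3, the factor these receptors activate, stood at 158, 237 and 207 CPM on day 2 against 48.2, 55.3 and 52.3 CPM in controls (1.95 ± 0.15, adjusted p = 2.29e-06). Both were separated without overlap, which their choice by small p favours. The NF-kappaB cofactor Bcl3 changed by 5.11 ± 0.45 and the kinase Jak3 by 1.86 ± 0.22, whereas Jak1 (0.11 ± 0.09) and Jak2 (0.18 ± 0.11) did not pass. In the NF-kappaB list 14 of 24 genes rose and 1 fell, against 14.7% and 9.99% of all genes. The inhibitors that NF-kappaB itself induces, Nfkbiz (1.76 ± 0.16) and Nfkbia (1.41 ± 0.17), rose with the subunit gene Nfkb2 (1.85 ± 0.29) and the kinases Ripk1 (1.60 ± 0.17) and Ikbke (1.66 ± 0.30), and the inhibitor Nfkbib fell by 0.43 on the log2 scale (adjusted p = 0.0433). The count of risen NF-kappaB genes came to 7 without the second day 2 library or without the third control library, and to 8 without the second control library. Nfkbib did not pass without the first or the third day 2 library or any single control library or with no filter or in a fit of the 2 groups alone (adjusted p 0.0589 to 0.138).

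Most pattern recognition genes rose too. Of 22 Toll-like receptors, co-receptors and adaptors 19 rose and 0 fell, with a median log2 change of 1.51. Tlr2, the receptor of bacterial lipopeptides and of some host ligands, stood at 21.1, 32.5 and 29.3 CPM on day 2 against 2.18, 1.41 and 0.416 CPM in controls (4.36 ± 0.49, adjusted p = 2.61e-04). The endotoxin receptor Tlr4 changed by 2.78 ± 0.33, its co-receptors Cd14 by 3.45 ± 0.36 and Ly96 by 1.24 ± 0.38, the RNA receptors Tlr7 by 2.81 ± 0.24 and Tlr13 by 3.64 ± 0.38, and the shared adaptor Myd88 by 1.50 ± 0.18. The DNA receptor Tlr9 (-0.05 ± 0.39) and the flagellin receptor Tlr5 (-0.05 ± 0.66) did not pass. Of 25 genes of inflammasomes and cell death 15 rose. They included the necroptosis pair Ripk3 (3.21 ± 0.66) and Mlkl (3.57 ± 0.61), the sensor Zbp1 (5.79 ± 0.73), the inflammasome sensors Nlrp3 (2.62 ± 0.35) and Aim2 (1.98 ± 0.37), the pore former of pyroptosis Gsdmd (1.75 ± 0.29) and the initiator protease Casp8 (2.08 ± 0.25). Of the intrinsic apoptosis genes the protective Mcl1 (1.09 ± 0.11) and the killer Bcl2l11 (1.29 ± 0.28) rose, and Bax (0.10 ± 0.19), Bbc3 (0.35 ± 0.36), Bcl2 (0.17 ± 0.14) and Bcl2l1 (-0.03 ± 0.10) not. In the prostaglandin and leukotriene pathway 10 of 25 genes rose and 1 fell, against 14.7% and 9.99% of all genes. The phospholipase that frees arachidonic acid, Pla2g4a, stood at 19.6, 22.1 and 26.5 CPM on day 2 against 3.35, 2.86 and 3.16 CPM in controls (2.86 ± 0.23, adjusted p = 2.51e-06). The prostaglandin E synthase Ptges changed by 2.35 ± 0.29, the leukotriene activator Alox5ap by 2.67 ± 0.36, the D synthase of blood-derived cells Hpgds by 2.02 ± 0.23, and the cyclooxygenase Ptgs2 by 0.52 ± 0.14. The membrane-bound synthase Ptges2 fell (-0.49 ± 0.12). Ly96 did not pass without the third day 2 library or any single control library (adjusted p 0.0554 to 0.101) and Ptgs2 without the second control library (adjusted p = 0.0504).

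Most chemokine genes rose, many of them from traces. Of 24 tested, 16 rose and 2 fell, and the median log2 change was 4.56. Monocyte attractants of the Ccl2 cluster were nearly absent in controls. Ccl12 stood at 19.6, 20.1 and 17.4 CPM on day 2 against 0.126, 0 and 0.0416 CPM in controls (8.32 ± 0.43, adjusted p = 7.61e-08). Ccl2, with 2 counts in all controls, stood at 13.02, 24.8 and 18.5 CPM on day 2 and was 708-fold (95% counting interval 195 to 5851) higher. Ccl7 stood at 5.37, 10.9 and 7.44 CPM on day 2 and was 199-fold (95% counting interval 67.7 to 969) higher. Neutrophil attractants did likewise. Cxcl1 stood at 13.5, 25.1 and 17.9 CPM on day 2 against 0.126, 0 and 0 CPM in controls and was 473-fold (95% counting interval 161 to 2298) higher, and Cxcl2, with no control count, stood at 1.99, 6.71 and 4.53 CPM and was at least 112-fold higher. Cxcl10, an attractant induced by interferon, was 112-fold (95% counting interval 37.9 to 547) higher, while its relative Cxcl9 was too low to be tested. The macrophage products Ccl6 (4.87 ± 0.40) and Ccl9 (7.04 ± 0.73) and the membrane-bound Cxcl16 (3.07 ± 0.30) rose too. Both chemokines that fell are made outside the immune system. Cx3cl1, by which neurons address microglia, stood at 312, 347 and 386 CPM on day 2 against 525, 659.6 and 714 CPM in controls (-0.86 ± 0.13, adjusted p = 3.56e-04), and Ccl27a, known from skin, fell (-1.23 ± 0.18). The stem cell attractant Cxcl12 did not pass (0.31 ± 0.16).

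Most genes of neutrophils and monocytes rose, several of them from traces. Of 17 neutrophil genes tested 13 rose, with a median log2 change of 5.50, or 5.28 with genes absent in controls at their bound. Cxcr2, the neutrophil receptor of Cxcl1 and Cxcl2, stood at 6.70, 11.2 and 8.52 CPM on day 2 with 1 count in all controls and was 662-fold (95% counting interval 118 to 26215) higher. S100a9, a chain of the alarmin calprotectin, stood at 29.1, 29.9 and 24.0 CPM on day 2 against 0.963, 0.483 and 0.375 CPM in controls (5.50 ± 0.44, adjusted p = 1.14e-05). Its partner S100a8 changed by 5.51 ± 0.68, and the lectin Clec4d was 314-fold (95% counting interval 86.4 to 2599) higher. The summed neutrophil level was 223, 426 and 262 CPM on day 2 and 18.1, 14.0 and 12.8 CPM in controls, of which Lcn2, the iron-trapping lipocalin that astrocytes also make, held 117, 282 and 152 CPM on day 2. Genes of neutrophil granules made in the marrow, Camp, Elane and Mpo, and the surface marker Ly6g were too low to be tested in both groups. Of 20 genes of inflammatory monocytes 17 rose. Their summed level was 653, 1172 and 938 CPM on day 2 and 168, 125 and 123 CPM in controls, of which Fn1, a matrix gene of vessels and fibroblasts as well, held 234, 457 and 359 CPM on day 2 and 87.6, 45.1 and 52.1 CPM in controls. Ccr2, the receptor of Ccl2, stood at 15.1, 25.1 and 20.4 CPM on day 2 against 0.922, 0.855 and 0.333 CPM in controls (4.83 ± 0.36, adjusted p = 2.07e-06). Arg1, the arginase of wound macrophages, stood at 33.0, 80.6 and 58.4 CPM on day 2 against 0, 0.186 and 0.0833 CPM in controls (9.17 ± 0.70, adjusted p = 5.39e-05). The membrane protein Ms4a6c (5.97 ± 0.61) and the lysozyme Lyz2 (4.33 ± 0.55) rose too, and the interferon-inducible Ifi204 was 109-fold (95% counting interval 36.8 to 531) higher, whereas Ly6c2, with a near-identical copy Ly6c1, did not pass (1.95 ± 0.88). Ly6c1 itself, which vessels also express, rose by 1.21. Most lymphocyte genes were near 0. The T-cell genes Cd3d, Cd3g and Cd8a and the B-cell gene Ms4a1 were too low to be tested, 1 gene of each lineage passed (Cd22 was 26.7-fold (95% counting interval 8.69 to 133) higher and Trbc2 fell by 1.29 on the log2 scale), and the third day 2 library stood apart for Cd4 at 0.776, 0.256 and 17.8 CPM on day 2 against 0.545, 5.76 and 8.99 CPM in controls. Trbc2 did not pass without any single day 2 library or the second or the third control library or with limma voom (adjusted p 0.0528 to 0.132).

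Leukocytes leave the blood through adhesion molecules of the vessel wall and of their own surface, and bulk RNA does not tell which cells held these transcripts. Of 24 adhesion genes 15 rose and 0 fell. Selp, the selectin that starts rolling, had no control count and 4.60, 5.74 and 7.06 CPM on day 2 and was at least 145-fold higher (adjusted p = 2.51e-06). Sele changed by 4.04 ± 0.72, the integrin ligands Icam1 by 3.22 ± 0.31 and Vcam1 by 1.06 ± 0.18, and the junction protein Pecam1 by 1.72 ± 0.15. Of the integrin chains of leukocytes, which microglia share in part, Itgal (4.59 ± 0.75), Itgam (2.15 ± 0.23) and Itgb2 (3.13 ± 0.33) rose, and Itga4, the partner for Vcam1, did not pass (0.01 ± 0.40). Of 13 chemokine receptors 7 rose, with Ccr1 at 5.05 ± 0.61, Cxcr4 at 1.97 ± 0.35 and the microglial Cx3cr1 at 1.13 ± 0.22.

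Genes of resident macrophages did not change as a block. Of 20 genes of resting microglia 10 rose and 2 fell, against 14.7% and 9.99% of all genes. Csf1r, the growth factor receptor on which microglia depend, stood at 144, 182 and 169.9 CPM on day 2 against 91.4, 79.3 and 81.7 CPM in controls (0.97 ± 0.13, adjusted p = 1.67e-04), and the purine receptor Gpr34 changed by 1.05 ± 0.17 and the adaptor Bin2 by 2.08 ± 0.17. P2ry12, the ADP receptor that steers resting processes, stood at 38.7, 33.9 and 46.0 CPM on day 2 against 57.9, 52.1 and 57.0 CPM in controls (-0.49 ± 0.12, adjusted p = 0.00668), and the lectin Siglech fell (-0.68 ± 0.16). Tmem119, a further marker of resting microglia, did not pass (0.49 ± 0.21), nor did the factor Sall1 (0.31 ± 0.14). Genes of macrophages at the brain's borders rose in 11 of 13 cases. Mrc1, the mannose receptor, stood at 49.7, 48.4 and 26.6 CPM on day 2 against 7.41, 5.21 and 5.33 CPM in controls (2.80 ± 0.29, adjusted p = 7.08e-05), the scavenger receptor Stab1 changed by 2.84 ± 0.30, the sialic acid receptor Siglec1 by 2.99 ± 0.52, and the platelet chemokine Pf4, which these macrophages also make, by 3.79 ± 0.53. Tmem119 passed without the first day 2 library or the first control library (adjusted p 0.0194 to 0.0306).

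Genes of phagocytes around damaged tissue rose in 17 of 22 cases and fell in 0. Cd68, a lysosomal membrane protein, stood at 47.1, 72.7 and 56.2 CPM on day 2 against 9.68, 7.33 and 7.83 CPM in controls (2.83 ± 0.47). Lgals3, a lectin of activated phagocytes, stood at 18.7, 27.5 and 27.9 CPM on day 2 against 0.754, 0.521 and 0.375 CPM in controls (5.48 ± 0.74, adjusted p = 0.00175). The lectin Clec7a changed by 4.32 ± 0.45, the protease inhibitor Cst7 by 3.71 ± 0.51, the receptor Trem2 by 1.74 ± 0.27, its adaptor Tyrobp by 2.43 ± 0.27, the protease Ctsz by 2.23 ± 0.28 and the membrane protein Gpnmb by 4.25 ± 0.83. The lipid carrier Apoe, which is part of the same program in chronic disease, stood at 1281, 1509 and 1247 CPM on day 2 against 1981, 1668 and 1582 CPM in controls (-0.37 ± 0.15, adjusted p = 0.0886), so that all day 2 libraries lay below the controls without passing the test. Lpl (0.47 ± 0.37) and Igf1 (-0.23 ± 0.26) did not pass either. Lgals3 did not pass with limma voom (adjusted p = 0.0986) and Gpnmb without the third control library or with limma voom (adjusted p 0.0550 to 0.113). Apoe passed by DESeq2 (adjusted p = 0.0413).

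**Figure D3:**
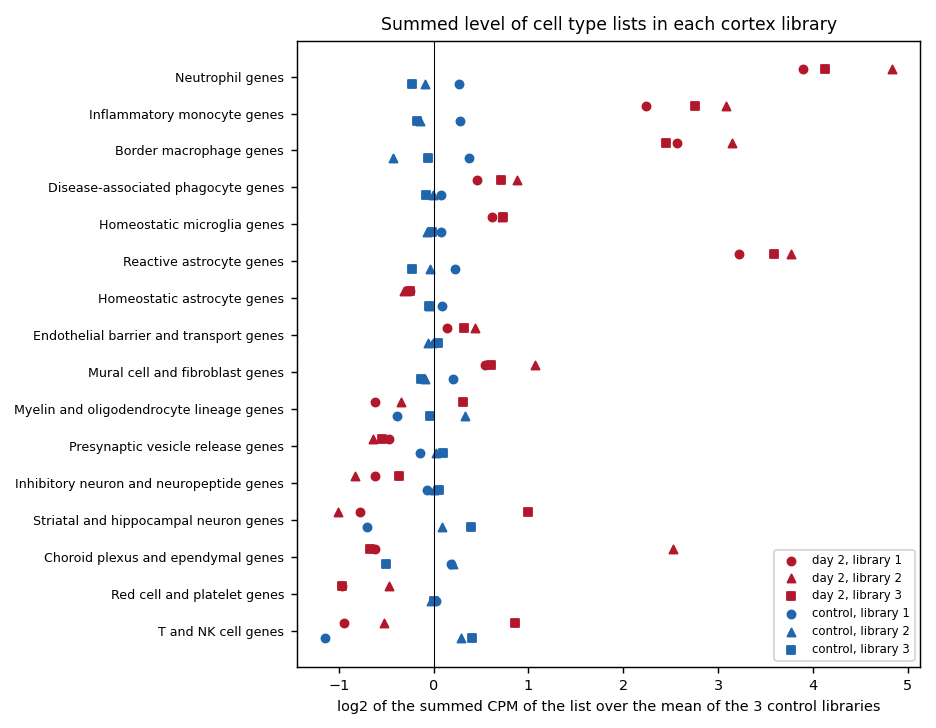
Summed CPM of each cell type list per cortex library, as the log2 ratio to the mean of the 3 control libraries, with day 2 libraries drawn above control libraries and the marker shape giving the library number. Neutrophil, monocyte, border macrophage and reactive astrocyte sums lie to the right in every day 2 library, presynaptic sums lie to the left, and the striatal, choroid plexus, myelin and T-cell sums differ as much within a group as between groups.

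Interferon-stimulated genes had the highest share of risen members of the lists examined. Of 44 tested, 43 rose and 0 fell, with a median log2 change of 2.15. Irgm1, an interferon-inducible GTPase, stood at 31.7, 40.0 and 36.5 CPM on day 2 against 8.63, 7.92 and 8.33 CPM in controls (2.12 ± 0.14, adjusted p = 6.54e-07). Trim30a, a mouse ubiquitin ligase, stood at 12.9, 12.5 and 14.5 CPM on day 2 against 1.80, 2.16 and 1.87 CPM in controls (2.77 ± 0.20, adjusted p = 1.14e-06). The groups lay far apart in both, which their choice by small p favours. The transcription factors of the pathway rose together, with Irf9 at 1.86 ± 0.15, Irf7 at 3.06 ± 0.31 and Stat2 at 0.82 ± 0.11. The membrane protein Ifitm3 changed by 3.54 ± 0.24, the guanylate-binding Gbp3 by 2.54 ± 0.21, the antiviral synthetase Oasl2 by 3.76 ± 0.31, the ubiquitin-like Isg15 by 3.13 ± 0.42 and the receptors of foreign RNA Ddx58 by 1.72 ± 0.16 and Ifih1 by 1.09 ± 0.18. The kinase Cmpk2, a neighbour of the interferon-stimulated Rsad2, was the member that did not pass (-0.13 ± 0.14). Of the interferon receptors, Ifnar2 (1.03 ± 0.18) and Ifngr1 (0.71 ± 0.14) rose, and Ifnar1 (0.23 ± 0.09) and Ifngr2 (0.17 ± 0.11) did not pass. Pairs such as Ifit3 and Ifit3b share sequence, so that their separate values are uncertain.

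The promoters of the interferon-stimulated genes are shown because many of these genes carry the sequence bound by the interferon-activated factor that holds Stat2 and Irf9. The 100 bases before the start of Irgm1 (chr11:48871421-48871520) and Trim30a (chr7:104465194-104465293), both on the minus strand of GRCm38.p6 as annotated by RefSeq, read as follows, with matches to GAAANNGAAA, on either strand, in capitals.
Irgm1: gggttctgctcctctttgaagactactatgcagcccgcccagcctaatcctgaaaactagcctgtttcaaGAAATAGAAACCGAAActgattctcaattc
Trim30a: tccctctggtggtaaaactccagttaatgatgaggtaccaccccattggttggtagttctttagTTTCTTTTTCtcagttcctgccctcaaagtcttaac
In Irgm1 the run in capitals holds 2 overlapping matches, and in Trim30a the match lies on the opposite strand. In windows of 250 bases before to 50 after the start, 3.44% of all 32851 promoters held the motif, and so did 3.68% of the 12486 tested genes with a window. Of 31 interferon-stimulated genes with a window, 20 (64.5%) held it. The share was 6.15% of genes that rose and 3.20% of genes that fell. A match of letters is a description and not a binding site.

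Antigen presentation and complement moved the same way. Of 22 genes of the class I pathway 19 rose. Nlrc5, the transactivator of class I genes, stood at 4.88, 6.66 and 11.5 CPM on day 2 against 0.377, 0.632 and 0.250 CPM in controls (4.16 ± 0.41, adjusted p = 1.16e-05), the light chain B2m changed by 1.36 ± 0.15, the peptide transporter Tap1 by 1.90 ± 0.21, and the immunoproteasome subunits Psmb8 by 2.99 ± 0.43 and Psmb9 by 2.06 ± 0.34, while Psmb10 did not pass (-0.19 ± 0.11). The heavy chains, such as H2-K1 (1.81 ± 0.39) and H2-D1 (1.56 ± 0.35), are near-identical to one another and their values are uncertain. Of 12 class II genes 7 rose, with the invariant chain Cd74 at 6.94 ± 3.76 CPM on day 2 and 1.76 ± 0.465 CPM in controls, and the protease Ctss that trims it at 1.58 ± 0.21, and the co-stimulator Cd86 at 1.54 ± 0.26, whereas the class II transactivator Ciita did not pass (0.62 ± 0.35). Complement genes rose in 17 of 25 cases. C3, the component on which all complement pathways meet, stood at 19.2, 37.2 and 19.8 CPM on day 2 against 0.293, 0.149 and 0.208 CPM in controls (6.85 ± 0.37, adjusted p = 1.23e-07). C4b changed by 2.80 ± 0.21, the first component's chains C1qa by 2.19 ± 0.22, C1qb by 2.62 ± 0.22 and C1qc by 2.45 ± 0.26, and the anaphylatoxin receptors C3ar1 by 4.05 ± 0.36 and C5ar1 by 6.06 ± 0.48. H2-D1 did not pass without the second day 2 library (adjusted p = 0.0528) and Cd74 without the second control library or with limma voom (adjusted p 0.0554 to 0.0577).

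Nearly all reactive astrocyte genes examined rose, beside a mixed change of genes of normal astrocyte function. Lcn2 is in the neutrophil list too, and bulk RNA does not tell which cells held these transcripts. Of 33 reactive genes tested 32 rose, and Sphk1, the sphingosine kinase, did not pass (-0.08 ± 0.26). Lcn2, named above, stood at 0.293, 0 and 0.0833 CPM in controls and changed by 10.50 ± 0.61 (adjusted p = 2.18e-05). Ptx3, a secreted pentraxin, stood at 38.2, 48.4 and 46.6 CPM on day 2 against 0.251, 0.0744 and 0 CPM in controls (8.62 ± 0.41). Tgm1, a transglutaminase, stood at 97.0, 153 and 131 CPM on day 2 against 0.126, 0.298 and 0 CPM in controls (9.70 ± 0.43, adjusted p = 1.02e-06). No control library reached 1 CPM in any of these. Genes described in mouse astrocytes after systemic inflammation, such as the complement inhibitor Serping1 (2.04 ± 0.29) and the guanylate-binding Gbp2 (1.79 ± 0.26), and genes described after ischemia, such as the membrane proteins Emp1 (4.66 ± 0.70) and Tm4sf1 (2.66 ± 0.20), were among those that rose. The metal reductase Steap4 changed by 7.43 ± 0.42 and the sphingosine phosphate receptor S1pr3 by 3.35 ± 0.18. The filament gene of immature cells Nes changed by 3.05 ± 0.35 and the protease inhibitor Serpina3n by 3.89 ± 0.28.

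Of 32 genes of astrocyte function 6 rose and 10 fell, against 14.7% and 9.99% of all genes. The water channel Aqp4 stood at 334, 335 and 365 CPM on day 2 against 167, 117 and 113 CPM in controls (1.38 ± 0.16, adjusted p = 7.32e-05). The folate enzyme Aldh1l1 (0.81 ± 0.11), the sodium pump subunit Atp1b2 (0.54 ± 0.10) and the lineage factor Sox9 (0.67 ± 0.13) rose too. Beside Slc1a2 and Sparcl1, the neurotensin receptor Ntsr2 (-0.63 ± 0.12), the lipid enzyme Acsl3 (-0.52 ± 0.12) and the glutamine synthetase Glul (-0.33 ± 0.09) fell. The glutamate transporter Slc1a3 (0.22 ± 0.12) and the connexins Gja1 (0.25 ± 0.17) and Gjb6 (-0.11 ± 0.13) did not pass. In the list of transporters linked to brain swelling, 4 of 29 rose and 10 fell, against 14.7% and 9.99% of all genes. The potassium chloride exporter of neurons Slc12a5 stood at 387, 425 and 409 CPM on day 2 against 570.3, 591 and 678 CPM in controls (-0.59 ± 0.09, adjusted p = 4.83e-04). The importer Slc12a2 did not pass (0.01 ± 0.12), and the cation channels Trpv4 (2.06 ± 0.43) and P2rx7 (0.89 ± 0.22) rose. Glul did not pass without the second control library (adjusted p = 0.0809). Slc1a3 passed without the first control library (adjusted p = 0.0103) and Gja1 without the first control library (adjusted p = 0.00706).

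Many endothelial genes were higher on day 2, those of the barrier included. Of 31 genes of barrier and transport 20 rose and 1 fell. The tight junction protein Cldn5 stood at 38.8, 67.8 and 49.2 CPM on day 2 against 26.7, 28.5 and 27.8 CPM in controls (0.91 ± 0.16, adjusted p = 0.00121), with Tjp1 at 0.59 ± 0.10 and Ocln at 0.73 ± 0.21. The glucose transporter Slc2a1 changed by 0.80 ± 0.13, the lactate transporter Slc16a1 by 1.24 ± 0.09 and the amino acid transporter Slc38a5 by 1.81 ± 0.25. The lipid transporter Mfsd2a did not pass (0.13 ± 0.16), and the transferrin receptor Tfrc fell (-0.46 ± 0.12). Of 32 genes of activated or sprouting vessels 17 rose and 1 fell. The clotting carrier Vwf stood at 40.7, 57.9 and 46.0 CPM on day 2 against 11.1, 6.73 and 9.66 CPM in controls (2.40 ± 0.18, adjusted p = 1.93e-06), the destabilising ligand Angpt2 changed by 1.94 ± 0.38, and the surface protein Cd93 by 2.78 ± 0.35. Vegfa, the main growth factor of vessels, stood at 63.2, 73.8 and 73.4 CPM on day 2 against 101, 94.5 and 104 CPM in controls (-0.51 ± 0.10, adjusted p = 0.00152). Genes of mural cells and fibroblasts rose in 5 of 24 cases, against 14.7% of all genes, with 3 without the second day 2 library and 9 without the first. The collagen-binding Lum (2.59 ± 0.47) and the vascular channel subunit Kcnj8 (0.91 ± 0.24) rose, the growth factor Igf2 fell (-2.38 ± 0.69), and the pericyte genes Pdgfrb (0.36 ± 0.17) and Rgs5 (0.40 ± 0.16) did not pass. Ocln did not pass without the second day 2 library or the second or the third control library (adjusted p 0.0618 to 0.0799), Tfrc without the third control library (adjusted p = 0.0574) and Igf2 without the first or the second day 2 library or any single control library (adjusted p 0.0513 to 0.0832). Pdgfrb passed without the first day 2 library (adjusted p = 0.0488) and Rgs5 without the first day 2 library (adjusted p = 0.0266).

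Of 40 genes of plasminogen activation, coagulation and metalloproteases 27 rose and 1 fell. Timp1, an inhibitor of metalloproteases, stood at 46.4, 82.8 and 64.2 CPM on day 2 against 1.05, 1.04 and 1.67 CPM in controls (5.69 ± 0.30, adjusted p = 6.68e-07). Mmp9, a protease that opens the vessel wall, changed by 2.60 ± 0.33, and Mmp3, with no control count, stood at 4.49, 15.3 and 7.44 CPM on day 2 and was at least 230.1-fold higher. The plasminogen activator Plat changed by 0.68 ± 0.14, the urokinase receptor Plaur by 3.37 ± 0.62, and the clotting starter F3 by 0.74 ± 0.12, whereas the urokinase Plau did not pass (0.81 ± 0.45) and the membrane-bound protease Mmp17 fell (-0.69 ± 0.17). The versican-cutting Adamts1 changed by 2.81 ± 0.25. Collagens and other matrix genes rose in 22 of 38 cases, and in 14 without the second day 2 library or without the second or the third control library. The secreted Tgfbi stood at 42.7, 77.3 and 57.1 CPM on day 2 against 2.68, 2.75 and 3.41 CPM in controls (4.32 ± 0.35, adjusted p = 3.62e-05), Lgals1 changed by 3.69 ± 0.31, Thbs1 by 5.05 ± 0.46, Tnc by 2.73 ± 0.36, fibronectin Fn1 by 2.51 ± 0.40 and the basement membrane chain Col4a1 by 1.39 ± 0.29. The scar collagen Col1a1 stood at 31.3, 81.4 and 27.9 CPM on day 2 against 14.6, 7.33 and 9.49 CPM in controls and did not pass (2.17 ± 0.72, adjusted p = 0.0780). In the nets around neurons and synapses Ncan (-0.30 ± 0.09) and Cspg5 (-0.45 ± 0.10) fell with Bcan, and Hapln1 (-0.55 ± 0.22) did not pass, so that 3 of 16 such genes fell and 2, the hyaluronan receptor Cd44 (3.85 ± 0.35) and the synthase Has2 (3.42 ± 0.69), rose, against 9.99% and 14.7% of all genes. Mmp3 did not pass without the second or the third day 2 library or the third control library or with no filter or with limma voom (adjusted p 0.0518 to 0.116), Mmp17 without the second day 2 library (adjusted p = 0.0568) and Ncan without the third day 2 library or the second or the third control library (adjusted p 0.0541 to 0.0721). Plau passed in a fit of the 2 groups alone (adjusted p = 0.00601), Col1a1 by DESeq2 or in a fit of the 2 groups alone (adjusted p 0.00514 to 0.0336) and Hapln1 without the first day 2 library or by DESeq2 or with limma voom (adjusted p 0.00158 to 0.0409).

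Stress genes of the endoplasmic reticulum rose widely. Of 35 genes of the integrated stress and unfolded protein responses 20 rose and 1 fell. Hspa5, the chaperone of the endoplasmic reticulum, stood at 515, 524 and 474 CPM on day 2 against 262, 267 and 261 CPM in controls (0.94 ± 0.09, adjusted p = 7.11e-06), and its folding partner Pdia4 changed by 1.30 ± 0.11, Sdf2l1 by 1.51 ± 0.23 and the disposal factor Edem1 by 1.28 ± 0.17. Atf4, the hub of the integrated response, did not pass (0.05 ± 0.09), and Asns, an Atf4 target, fell (-0.34 ± 0.12). In the list of heat shock proteins and co-chaperones 10 of 29 rose and 2 fell, against 14.7% and 9.99% of all genes. The small chaperones Hspb1 changed by 2.85 ± 0.35, Hspb6 by 2.21 ± 0.25 and Hspb8 by 2.20 ± 0.33, while Hsp90aa1 (-0.26 ± 0.11) and Hspa8 (-0.12 ± 0.10) did not pass and Hsph1 (-0.48 ± 0.12) and Dnajb5 (-0.50 ± 0.10) fell. Hspa1a and Hspa1b, which share most of their sequence, stood at 4.99 ± 1.36 and 7.80 ± 0.923 CPM on day 2 and 2.71 ± 1.02 and 3.56 ± 0.136 CPM in controls. Asns did not pass without the second day 2 library or any single control library or with trimmed library sizes or in a fit of the 2 groups alone (adjusted p 0.0598 to 0.204) and Hsph1 without the second control library (adjusted p = 0.0586). Hsp90aa1 passed without the first day 2 library (adjusted p = 0.00796) and Hspa1a without the first control library or by DESeq2 or with limma voom (adjusted p 0.0139 to 0.0415).

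In the list of antioxidant, haem, iron and metal genes 22 of 37 rose and 1 fell. Hmox1, the enzyme that breaks down haem, stood at 145, 321 and 229 CPM on day 2 against 4.19, 5.76 and 6.87 CPM in controls (5.36 ± 0.50, adjusted p = 3.31e-04). The copper carrier and ferroxidase Cp stood at 107, 142 and 142 CPM on day 2 against 19.1, 14.4 and 13.1 CPM in controls (3.07 ± 0.20, adjusted p = 3.86e-06). The peroxidases Prdx6 (1.25 ± 0.11) and Prdx1 (1.04 ± 0.11), the cystine importer Slc7a11 (0.99 ± 0.21) and the factor Nfe2l2 itself (1.73 ± 0.23) rose, and Nqo1 (0.47 ± 0.26) and Gclc (1.38e-04 ± 0.10), 2 standard targets of that factor, did not pass. The metallothionein Mt1 stood at 271, 415 and 333 CPM on day 2 against 116, 118 and 97.1 CPM in controls (1.62 ± 0.14, adjusted p = 4.66e-06), Mt2 changed by 1.72 ± 0.54 at a low level, and the brain-specific Mt3 did not pass (0.30 ± 0.14). The promoter of Mt2 (chr8:94172443-94172543, plus strand, GRCm38.p6, RefSeq) is shown because metal-bound Mtf1 acts through the core TGCGCNC, in capitals, searched on both strands.
Mt2: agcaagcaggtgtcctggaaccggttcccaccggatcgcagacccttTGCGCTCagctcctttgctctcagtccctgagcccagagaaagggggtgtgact
The core stood in 15.4% of all promoter windows and 28.9% of those of tested genes, and in 7 of 29 genes of this list with a window (24.1%), a lower share than among tested genes. Mt2 did not pass without the second or the third day 2 library or the third control library (adjusted p 0.0771 to 0.109).

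Of 46 genes of low oxygen and of glycolysis 10 rose and 7 fell, against 14.7% and 9.99% of all genes, with a median log2 change of -0.01, and the number that fell was 2 without the third day 2 library or without the second control library. The inducible hexokinase Hk2 stood at 15.6, 27.7 and 24.6 CPM on day 2 against 2.22, 3.94 and 3.37 CPM in controls (2.83 ± 0.32, adjusted p = 1.09e-04), the lactate exporter Slc16a3 changed by 1.66 ± 0.28, the vasodilator Adm by 2.38 ± 0.31 and the hypoxia factor Hif1a by 0.59 ± 0.13. The neuronal isoforms Hk1 (-0.32 ± 0.09) and Ldhb (-0.51 ± 0.10) fell. Pdk1 (-0.09 ± 0.12), Ldha (0.04 ± 0.08) and Bnip3 (-0.06 ± 0.11), which rise when oxygen falls, did not pass. Targets of p53 rose in 9 of 26 cases (5 without the second day 2 or without the third control library), against 14.7% of all genes. Trp53 itself changed by 0.77 ± 0.13, Gtse1 by 3.00 ± 0.41, Gadd45g by 1.18 ± 0.20 and Eda2r by 3.44 ± 0.61, and Cdkn1a, the main target of p53, did not pass (0.41 ± 0.18). Of 26 genes that respond to glucocorticoids 8 rose (5 without the second day 2 or without the third control library) and 2 fell, against 14.7% and 9.99% of all genes. Angptl4 changed by 2.62 ± 0.33 and Tsc22d3 by -0.21 ± 0.10, the second not past the test, and Zbtb16 (-0.68 ± 0.15) and the phosphatase Dusp1 (-0.57 ± 0.16) fell. Of 19 clock genes 2 rose and 3 fell, against 14.7% and 9.99% of all genes. Cry2 (-0.58 ± 0.09), Arntl (-0.66 ± 0.12) and Npas2 (-0.45 ± 0.13) fell and Bhlhe41 (1.23 ± 0.22) and Tef (0.36 ± 0.09) rose. The hour of dissection is not given in the sources used here. Hk1 did not pass without the third day 2 library or any single control library (adjusted p 0.0527 to 0.103), Dusp1 without the third day 2 library or the first or the third control library (adjusted p 0.0574 to 0.0932), Npas2 without the first or the second day 2 library or the first or the third control library (adjusted p 0.0595 to 0.108) and Tef without the second control library (adjusted p = 0.0566). Cdkn1a passed without the first day 2 library (adjusted p = 0.0109).

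Genes of DNA replication and mitosis rose in 54 of 60 cases and fell in 0, with a median log2 change of 2.17. Mcm6, a subunit of the replicative helicase, stood at 24.0, 27.7 and 22.8 CPM on day 2 against 2.43, 2.05 and 2.12 CPM in controls (3.49 ± 0.24, adjusted p = 7.01e-07). Cdk1, the kinase that starts mitosis, stood at 13.5, 11.9 and 9.81 CPM on day 2 against 0.126, 0.446 and 0.125 CPM in controls (5.59 ± 0.44, adjusted p = 2.53e-06). Mki67, the common marker of cycling cells, stood at 59.2, 67.6 and 58.2 CPM on day 2 against 2.26, 3.24 and 2.33 CPM in controls (4.55 ± 0.48, adjusted p = 3.19e-04). All stages of the cycle were represented among the genes that rose, from the G1 cyclin Ccnd1 (2.52 ± 0.23) through the nucleotide enzyme Rrm2 (3.22 ± 0.27) to the checkpoint kinase Bub1b (4.87 ± 0.43) and the mitotic cyclin Ccnb1 (3.44 ± 0.58). The inhibitor of cycling Cdkn2a had no control count and was at least 21.8-fold higher. E2f1, the best-known E2F factor, did not pass (-0.02 ± 0.21), whereas E2f7 (3.81 ± 0.51) and E2f8 (2.65 ± 0.51) rose.

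Promoters of Mcm6 (chr1:128359720-128359840) and Cdk1 (chr10:69352913-69353068), both on the minus strand of GRCm38.p6 and from RefSeq, are shown because E2F factors act on many replication genes. Capitals mark matches to TTTNNCGC on either strand.
Mcm6: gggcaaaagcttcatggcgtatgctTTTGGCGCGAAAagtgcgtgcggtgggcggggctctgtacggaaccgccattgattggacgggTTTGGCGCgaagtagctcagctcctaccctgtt
Cdk1: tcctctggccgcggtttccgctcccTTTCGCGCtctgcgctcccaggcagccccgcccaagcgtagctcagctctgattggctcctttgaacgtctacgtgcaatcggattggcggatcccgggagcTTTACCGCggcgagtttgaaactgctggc
Mcm6 held 3 matches, 2 of them overlapping on opposite strands, and Cdk1 held 2. The motif stood in 5.17% of all windows, in 9.09% of those of tested genes and in 15 of 46 replication and mitosis genes with a window (32.6%). It stood in 9.42% of genes that rose and 8.71% of genes that fell.

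Neuronal genes fell widely and by small amounts. Presynaptic genes of vesicle release were the most uniform, with 25 of 33 lower, 0 higher and a median log2 change of -0.53. Stx1a, a membrane partner of Snap25, stood at 151, 176 and 147 CPM on day 2 against 260.3, 297 and 326 CPM in controls (-0.90 ± 0.11, adjusted p = 6.71e-05). Unc13a, which primes vesicles, stood at 237, 235 and 267 CPM on day 2 against 382, 420.3 and 501 CPM in controls (-0.82 ± 0.11, adjusted p = 9.86e-05). The active zone scaffold Rims1 changed by -0.82 ± 0.11 and the vesicular glutamate transporter Slc17a7 by -0.56 ± 0.11. Among glutamate and GABA receptor subunits 15 of 35 fell and 0 rose, with the NMDA receptor subunits Grin2c at -0.95 ± 0.12, Grin2a at -0.67 ± 0.13 and Grin1 at -0.52 ± 0.11, the AMPA receptor subunits Gria3 at -0.65 ± 0.10 and Gria4 at -0.55 ± 0.11, and the GABA receptor subunit Gabbr2 at -0.58 ± 0.10. Gria1 (-0.09 ± 0.15), Gria2 (-0.36 ± 0.14) and the metabotropic Grm5 (-0.07 ± 0.17) did not pass. Sodium, calcium and potassium channel genes fell in 22 of 48 cases, against 9.99% of all genes. They fell in 14 without the second day 2 or the second control library and in 12 without the third control library. The AMPA receptor and channel partner Cacng3 stood at 61.5, 67.6 and 58.7 CPM on day 2 against 105, 122 and 122 CPM in controls (-0.89 ± 0.10, adjusted p = 4.86e-05), the potassium channels Kcnj4 changed by -0.93 ± 0.12, Kcnma1 by -0.84 ± 0.12 and the silent subunit Kcnv1 by -1.41 ± 0.27. Gria2 passed without the first day 2 library or by DESeq2 (adjusted p 0.00459 to 0.0449).

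Markers of neuron classes fell in part. Of 31 genes of cortical layers and excitatory identity 7 fell and 1, the sulfatase Sulf1 (0.96 ± 0.21), rose, against 9.99% and 14.7% of all genes. The number lower was 3 without the second control library and 13 by DESeq2. Lamp5, of upper layers and of neurogliaform cells, stood at 89.99, 88.8 and 133 CPM on day 2 against 142, 327 and 390.2 CPM in controls (-1.46 ± 0.36, adjusted p = 0.0226). The deep layer factor Tbr1 changed by -0.66 ± 0.13 and Calb1 by -0.77 ± 0.15, whereas the upper layer factor Cux2 (-0.35 ± 0.16) and the subcortical projection factor Bcl11b (-0.01 ± 0.30) did not pass. Of 30 inhibitory neuron and neuropeptide genes 11 fell and 0 rose. The neuropeptide Sst stood at 84.3, 78.0 and 86.6 CPM on day 2 against 179, 165 and 161 CPM in controls (-1.02 ± 0.13, adjusted p = 9.84e-05). The peptides Npy (-0.95 ± 0.17), Vip (-0.77 ± 0.14) and Cck (-0.997 ± 0.18) and the GABA enzyme Gad1 (-0.73 ± 0.17) fell. The other GABA enzyme, Gad2 (-0.26 ± 0.27), and the calcium buffer Pvalb of fast-spiking cells (-0.48 ± 0.23) did not pass. Lamp5 did not pass without the first or the second day 2 library or the second or the third control library or with no filter (adjusted p 0.0511 to 0.101). Cux2 passed without the second day 2 library (adjusted p = 0.00641), Gad2 without the third day 2 library (adjusted p = 0.0384) and Pvalb without the first control library (adjusted p = 0.00707).

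Genes induced by neuronal activity fell more often than they rose. Of 36 immediate early genes 14 fell and 6 rose, against 9.99% and 14.7% of all genes. Npas4, a factor induced by calcium entry in neurons, stood at 13.2, 7.43 and 7.12 CPM on day 2 against 41.8, 29.1 and 30.9 CPM in controls (-1.87 ± 0.24, adjusted p = 1.69e-04). Nr4a1 stood at 40.2, 35.0 and 34.3 CPM on day 2 against 137, 90.5 and 105 CPM in controls (-1.60 ± 0.16, adjusted p = 3.55e-05). Egr3, named above, stood at 82.1, 81.4 and 76.8 CPM on day 2 against 160.0, 186 and 197 CPM in controls (-1.18 ± 0.11). Egr4 changed by -1.51 ± 0.20, the synaptic gene Arc by -0.98 ± 0.19, the growth factor Bdnf by -0.88 ± 0.15 and the scaffold Homer1 by -0.97 ± 0.22. Among the members that rose were the flow-induced factor Klf2 (1.28 ± 0.29), the stress factor Atf3 at 13.3 ± 5.26 CPM on day 2 and 0.526 ± 0.424 CPM in controls (4.67 ± 0.77, adjusted p = 0.00312), the survival gene Ier3 at 2.20 ± 0.19 and the injury factor Jun at 0.95 ± 0.21. Fos itself did not pass (-0.29 ± 0.21). Of the genes with at least 20 CPM in controls that fell most, Myl4, a myosin light chain, changed by -1.72 ± 0.36, the proteoglycan Fmod by -1.66 ± 0.39 and the membrane protein Vstm2l by -1.40 ± 0.18. Among the genes at that level that rose most, Msn, a link between membrane and actin, changed by 3.20 ± 0.30. Jun did not pass without the second day 2 library (adjusted p = 0.0538), Myl4 without the second day 2 library or with limma voom (adjusted p 0.0550 to 0.0585) and Fmod without the second day 2 library (adjusted p = 0.0580). Fos passed without the second control library (adjusted p = 0.0433).

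Genes that neurons raise when an axon is cut went both ways. In that list 9 of 29 rose and 8 fell, against 14.7% and 9.99% of all genes. The tubulin Tubb6 changed by 3.73 ± 0.37 and the factors Klf6 by 0.58 ± 0.09 and Sox11 by 0.58 ± 0.17, whereas the neuronal tubulin Tubb3 (-0.81 ± 0.09), the growth cone protein Basp1 (-0.56 ± 0.10) and the peptide Vgf (-1.03 ± 0.16) fell and Gap43, the best-known growth gene, did not pass (-0.07 ± 0.16). The growth factors Fgf2 (1.53 ± 0.14) and Hbegf (1.53 ± 0.16) rose. Sox11 did not pass without the first or the second day 2 library or the second or the third control library (adjusted p 0.0531 to 0.110).

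Myelin and oligodendrocyte genes showed little change that held across libraries. Of 30 such genes 2 rose and 3 fell, against 14.7% and 9.99% of all genes. Their summed level was 4501, 5419 and 8547 CPM on day 2 and 5284, 8683 and 6683 CPM in controls. The precursor genes Neu4 (-1.08 ± 0.23) and Gpr17 (-0.54 ± 0.12) fell, the lineage factor Olig2 rose (0.53 ± 0.16), and the myelin gene Mbp did not pass (-0.19 ± 0.26). Olig2 did not pass without the second or the third day 2 library or the third control library (adjusted p 0.0884 to 0.105).

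In basic metabolism, respiratory chain subunits encoded in the nucleus fell in 19 of 53 cases and rose in 0, against 9.99% and 14.7% of all genes, with a median of -0.27. The number that fell was 10 without the third day 2 library, 7 without the second control library and 11 without the third control library. Atp5g1, a subunit of the ATP synthase ring, stood at 26.0, 35.9 and 28.0 CPM on day 2 against 43.9, 47.7 and 48.3 CPM in controls (-0.64 ± 0.14, adjusted p = 0.00525), and the complex I and III subunits Ndufv1 (-0.37 ± 0.09), Uqcrfs1 (-0.34 ± 0.08) and Cyc1 (-0.40 ± 0.10) fell too. Cytosolic ribosomal protein genes rose in 32 of 66 cases (21 without the second day 2 and 19 without the third control library), against 14.7% of all genes. These genes have many processed copies, so that single values are uncertain, and Rplp0 led them at 1.16 ± 0.12. Among cholesterol genes 5 of 34 rose and 8 fell, the first the same share as over all genes (14.7%) and the second above it (9.99%). The synthesis gene Hmgcs1 (-0.60 ± 0.11) and its activator Srebf2 (-0.51 ± 0.09) fell, and the exporter Abca1 (1.42 ± 0.17), the esterifying Soat1 (1.14 ± 0.21) and the hydroxylase Ch25h (5.76 ± 1.11) rose. Arginine and polyamine genes rose in 9 of 24 cases and fell in 1 (5 rose without the second day 2 library), against 14.7% and 9.99% of all genes. The polyamine enzymes Odc1 changed by 1.34 ± 0.11, Sat1 by 0.95 ± 0.14 and Sms, which fell, by -0.36 ± 0.12. In the TGF-beta and BMP families 12 of 42 rose and 4 fell, against 14.7% and 9.99% of all genes. The number that fell lay between 0 and 4 when any library was left out. The ligand Tgfb1 changed by 2.05 ± 0.27, its receptor Tgfbr2 by 1.62 ± 0.23, the target Id1 by 1.54 ± 0.19, and the ligand Bmp3 (-0.88 ± 0.27) and the antagonist Nog (-0.94 ± 0.28) fell. Sms did not pass without the second or the third day 2 library or any single control library or with trimmed library sizes or in a fit of the 2 groups alone (adjusted p 0.0578 to 0.182), Bmp3 without the second or the third day 2 library or any single control library or with no filter or in a fit of the 2 groups alone (adjusted p 0.0557 to 0.141) and Nog without the third day 2 library or the third control library (adjusted p 0.0669 to 0.0800).

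**Figure D4:**
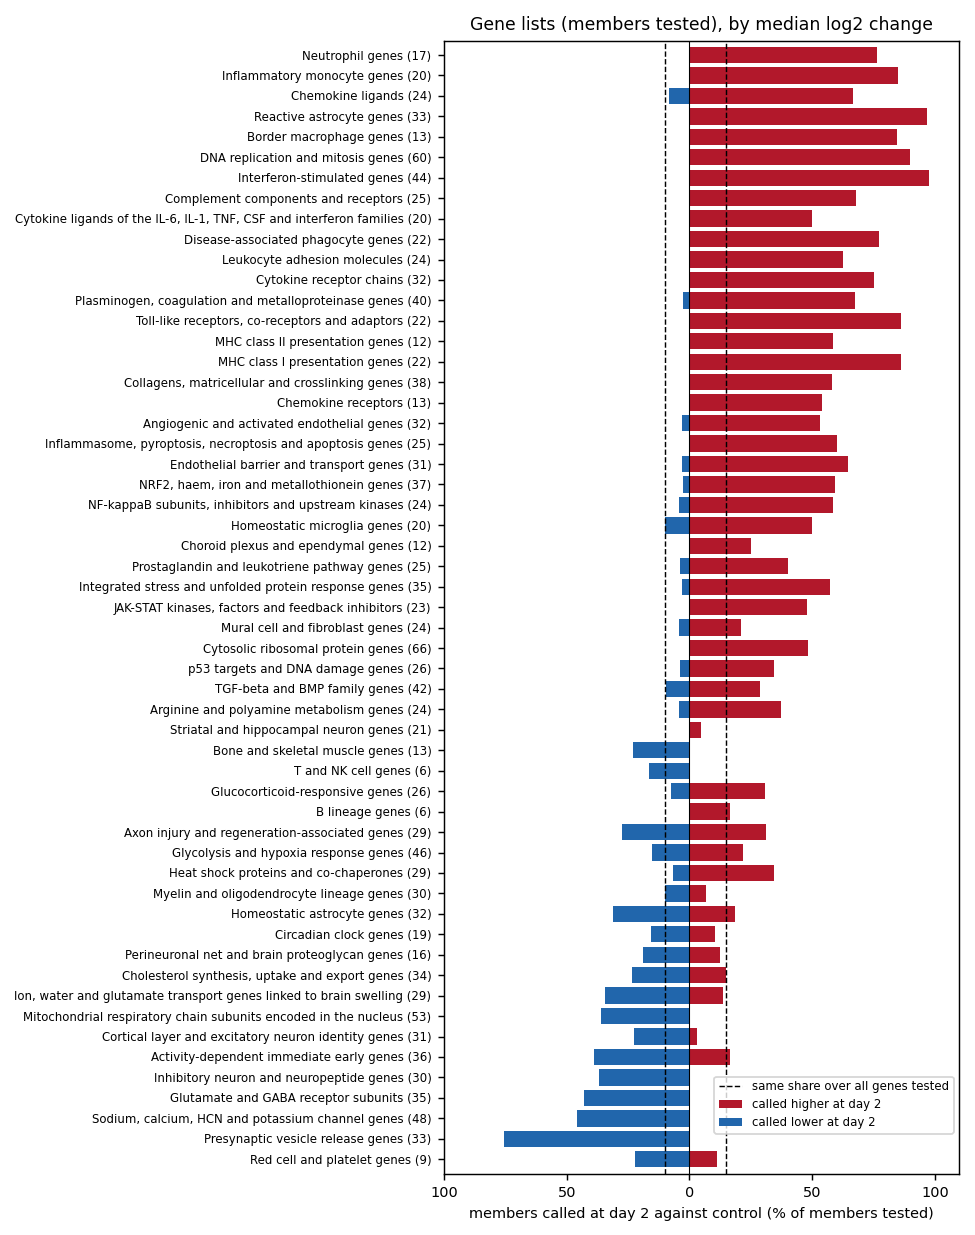
Share of the tested members of each list that were higher (red, to the right) or lower (blue, to the left) on day 2 than in controls, with the number tested in parentheses and the shares over all genes (14.7% and 9.99%) as dashed lines. Lists are ordered by their median log2 change, from neutrophil genes at the top to presynaptic and red cell genes at the bottom.

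Day 2 was set against day 6 in the same fit to see which changes belonged to the earlier time. Of 18151 genes 2099 (11.6%) differed between day 2 and day 6, 1137 (6.26%) higher and 962 (5.30%) lower on day 2. Of the 2671 genes that were higher on day 2 than in controls, 832 were also higher than on day 6, 54 were lower and 1785 did not differ by the test. Of the 1814 genes that were lower than in controls, 679 were also lower than on day 6. The 2 comparisons share the day 2 libraries. The genes named next had to pass against both controls and day 6, so that a peak or trough on day 2 was favoured by the choice. Slc5a3, the carrier of the osmolyte inositol, stood at 39.2, 30.7 and 29.3 CPM in controls, 130.5, 145 and 135 CPM on day 2 and 32.4, 33.7 and 29.3 CPM on day 6, a log2 difference of 2.10 ± 0.12 between day 2 and day 6 (adjusted p = 1.08e-06). Ly6a, an interferon-inducible surface protein, stood at 1.63, 2.05 and 2.67 CPM in controls, 23.6, 33.6 and 39.8 CPM on day 2 and 3.19, 3.66 and 3.64 CPM on day 6 (3.21 ± 0.23). Ccl12 (5.02 ± 0.33), Dhrs1 (1.58 ± 0.11) and Cxcl1 (5.78 ± 0.43) behaved alike. Bcan had the reverse course, with 225, 229 and 220.3 CPM in controls, 98.4, 115 and 107 CPM on day 2 and 225, 234 and 240.1 CPM on day 6 (-1.12 ± 0.09, adjusted p = 1.06e-05), as had Nrep (-1.32 ± 0.12), Lingo1 (-1.17 ± 0.11), the lysosomal nuclease Pld3 (-0.997 ± 0.10) and the haemoglobin chain Hba-a1 (-1.52 ± 0.15), which has a near-identical copy.

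By list, the earlier time stood out to different degrees. Replication and mitosis genes were higher on day 2 than on day 6 in 41 of 60 cases, reactive astrocyte genes in 24 of 33, interferon-stimulated genes in 26 of 44, against 6.26% of all genes. Phagocyte genes ran the other way, with 0 higher on day 2 and 10 of 22 lower, and a median log2 difference of -1.24. Apoe stood at 1281, 1509 and 1247 CPM on day 2 and 4864, 7583 and 6505 CPM on day 6 (-2.23 ± 0.16, adjusted p = 7.20e-06), and Spp1 stood at 742, 4024 and 2324 CPM on day 6 (-1.83 ± 0.58, adjusted p = 0.100). Presynaptic genes were lower on day 2 than on day 6 in 15 of 33 cases, against 5.30% of all genes. The ribosomal RNA of CT010467.1 stood at 8399, 6551 and 19436 CPM on day 6, and its part in these differences was not tested. Without 1 library the number of genes that differed between day 2 and day 6 lay between 910, without the third day 6 library, and 1948. It was 1273 without the first day 6 library and 1245 without the third day 2 library.

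**Figure D5:**
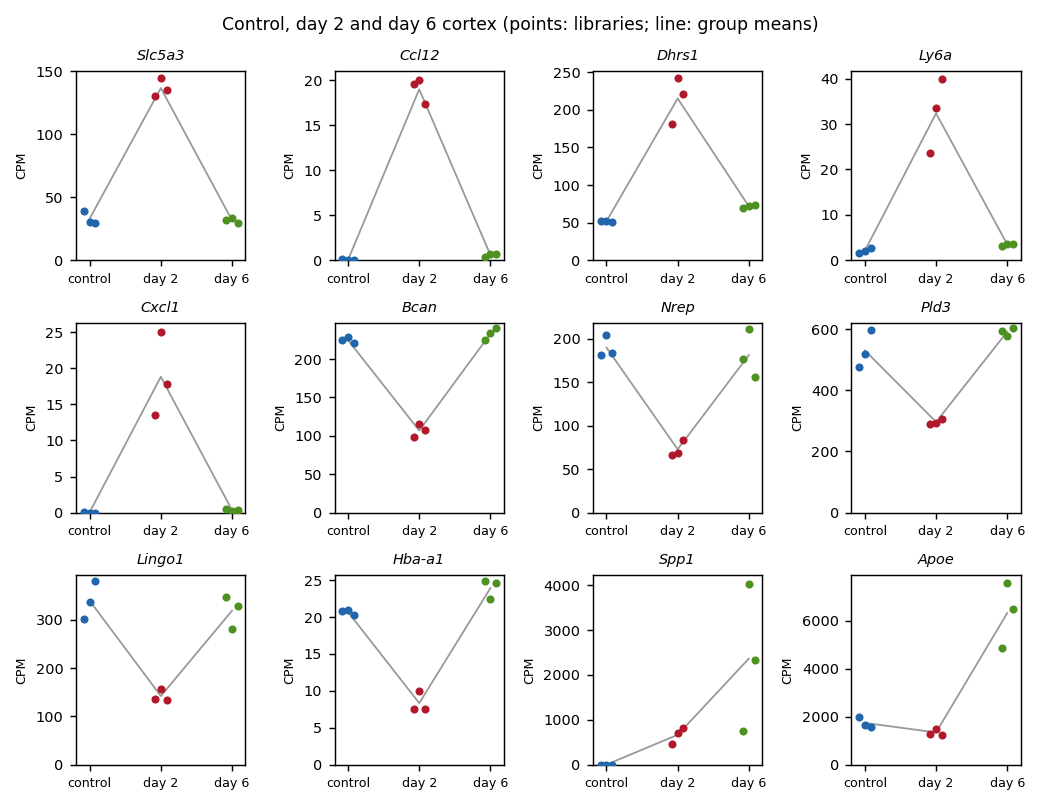
Levels in CPM of 12 genes in the 3 libraries each of control, day 2 and day 6 cortex, with a line through the group means. Genes other than Spp1 and Apoe were chosen because day 2 differed from controls and from day 6. Slc5a3, Ccl12, Dhrs1, Ly6a and Cxcl1 are highest on day 2, Bcan, Nrep, Pld3, Lingo1 and Hba-a1 are lowest on day 2, and Spp1 and Apoe are highest on day 6 in their means.

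The skull of the same study allowed a test of whether day 2 changes differed between tissues. In a fit of cortex and skull on day 2 and from controls, the cortical change differed from that in skull for 17.6% of genes tested, more positive in cortex for 14.0% and more negative for 3.60%. DESeq2 called 1182 genes more negative in cortex, against 680 by edgeR, and without the third control library of skull edgeR called 2185 genes in all, against 3313. Of the 2658 risen cortical genes tested there, 1363 had a more positive change in cortex than in skull, against 14.0% of all genes tested. Of the 1807 fallen genes 169 had a more negative and 263 a more positive change in cortex than in skull, against 3.60% and 14.0% of all genes tested. The cortical calls and this comparison use the same cortex libraries. Choosing risen genes therefore favours a more positive difference and choosing fallen genes a more negative one. Ptprc, the surface protein shared by all leukocytes, stood at 33.7, 34.4 and 35.2 CPM in day 2 cortex against 3.76, 3.79 and 4.27 CPM in control cortex, and at 86.3, 74.1 and 86.3 CPM in day 2 skull against 83.0, 89.2 and 82.8 CPM in control skull, a difference of changes of 3.17 ± 0.13 on the log2 scale (adjusted p = 4.48e-07). Mki67 stood at 59.8, 68.3 and 59.3 CPM in day 2 cortex against 2.30, 3.30 and 2.37 CPM in control cortex, and at 284, 219 and 221 CPM in day 2 skull against 121, 146 and 131 CPM in control skull (3.68 ± 0.21, adjusted p = 3.84e-06). Vegfa stood at 63.8, 74.6 and 74.7 CPM in day 2 cortex against 103, 96.3 and 106 CPM in control cortex, and at 286, 278 and 384 CPM in day 2 skull against 108, 77.5 and 97.5 CPM in control skull (-2.26 ± 0.21, adjusted p = 5.00e-05). In skull, Ptprc overlapped between day 2 and control libraries, while Mki67 and Vegfa were higher in every day 2 skull library than in every control skull library.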

How the data were processed

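RNA of 6 groups of 3 libraries was deposited as 1 table of raw read counts per gene. The authors selected poly(A) RNA and sequenced paired reads, per the labels' protocols, and aligned them to mm10 with HISAT2 2.1.0, per the submitters' processing notes. How reads were assigned to genes is not given in the sources used here, strand use included, so that overlapping and antisense genes cannot be told apart. The deposited counts hold 26783 lines for 25918 gene names, and 865 surplus lines of 49 names were identical copies and were dropped. Positions are those of GENCODE M21.

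The 9 cortex libraries were fitted together with edgeR 4.0.16 (R 4.3.3): TMM factors, filterByExpr by group, the robust quasi-likelihood test, and Benjamini-Hochberg adjustment over all genes tested. Standard errors are the change divided by the root of F. The change in cortex was set against that in skull by an interaction over 12 libraries. Where all controls together held 0 counts, a fold is a bound against 3 counts, and with 1 to 3 counts a ratio has an exact 95% interval, which covers counting error only. Nothing says that libraries are separate animals, so that p-values reflect variation among the libraries deposited. Each model was run once on simulated data with 200 changed genes, far fewer than were called here. Of changes of 1.5-fold, 2-fold and 4-fold, the day 2 model recovered 31.3%, 67.2% and 92.4%, and 7.30% of its calls were false. The day 6 model recovered 31.3%, 76.1% and 89.4% (6.43% false) and the interaction 2.99%, 25.4% and 80.3% (6.49% false). Small changes are thus often missed, above all in the comparison with skull. RLE and upper quartile factors, other filters, DESeq2 1.42.0, limma voom 3.58.1, trimmed library sizes, a replicate block, the compared groups alone and each library left out were alternatives.

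The genes and lists were chosen with earlier results of these data known, and the lists carry no test. Genes named are those without overlap of the groups and with the largest gains or losses in CPM (10 each way), those with the smallest p (6 each way), the largest changes among genes of at least 20 CPM in controls (8 each way), up to 5 of each list by p with up to 3 that moved against it and their relatives, and 5 each way for the comparisons with day 6 and skull. Loci without a gene name were skipped, and some genes that the rule names are not reported here. CT010467.1, Ttr, Cd4 and list members beyond these numbers were named after their values were seen.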

Additional observations from a re-analysis of the deposited data

Results flagged for a closer look

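The change between day 2 and control differed between cortex and skull for 3313 of 18863 genes tested, by the interaction in edgeR. The genes with the smallest p in each direction were the following. In cortex the change was more positive for Ptprc by 3.17 ± 0.13 on the log2 scale (adjusted p = 4.48e-07), for the leukocyte adhesion receptor Cd84 by 4.02 ± 0.18 (adjusted p = 4.48e-07), for Fcrls by 5.01 ± 0.23 (adjusted p = 4.48e-07), for Plek, a signalling protein of platelets and leukocytes, by 2.33 ± 0.13 (adjusted p = 3.77e-06) and for Mki67 by 3.68 ± 0.21 (adjusted p = 3.84e-06). Cd84 stood at 18.2, 20.7 and 16.8 CPM in day 2 cortex against 1.02, 0.910 and 0.973 CPM in control cortex, and at 49.8, 42.3 and 52.6 CPM in day 2 skull against 40.8, 43.2 and 39.3 CPM in control skull.

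In cortex the change was more negative for the retinol carrier Rbp4 by -1.48 ± 0.13 (adjusted p = 4.39e-05), for Vegfa by -2.26 ± 0.21 (adjusted p = 5.00e-05), for the glycolytic enzyme Pfkl by -1.38 ± 0.13 (adjusted p = 5.91e-05), for the signalling protein Rnd1 by -2.07 ± 0.22 (adjusted p = 1.12e-04) and for the secreted Ism1 by -1.62 ± 0.18 (adjusted p = 1.53e-04). Rbp4 stood at 9.62, 8.86 and 10.2 CPM in day 2 cortex against 18.9, 19.9 and 18.5 CPM in control cortex, and at 115, 117 and 100.5 CPM in day 2 skull against 73.6, 84.1 and 80.9 CPM in control skull. The tissues differ in cell makeup in both states, and its part in these differences was not tested. Groups of 3 libraries are too small for a test of single outlying libraries.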

How the results depend on the processing

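The number of genes that differed between day 2 and control cortex lay between 4000 and 5041 under the alternatives that kept all libraries, with 2506 to 2840 higher and 1494 to 2201 lower, and the median log2 change of all genes lay between -0.0144 and 0.0409. With 1 library left out it lay between 3136 and 4622, with 2005 to 2722 higher and 1131 to 1900 lower. For day 2 against day 6 the range with 1 library left out was 910 to 1948, with 485 to 1052 higher and 425 to 1014 lower on day 2. For cortex against skull it was 2185 to 3979, with 1829 to 3293 more positive and 356 to 686 more negative in cortex. DESeq2 gave 1182 genes more negative in cortex in place of 680. The cause of these shifts was not tested. Of 339 genes named that passed the test, 328 kept the call under every alternative that kept all libraries and 307 under every leave-one-out, and none changed sign. A gene that an alternative did not test, or gave no adjusted p, counted as keeping its call. The count of risen or of fallen members of a list moved by over 1.5 times in 46 of 1008 comparisons with an alternative that kept all libraries. Ttr, which did not pass, had changes from -2.76, without the second day 2 library, to 2.32 with 1 library left out, in place of 1.75.

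Deviations of same-numbered day 2 and control libraries correlated by 0.171, -0.0111 and 0.233, and those of differently numbered ones by -0.303 to 0.137. So few values cannot show whether replicate numbers pair the libraries. With the replicate number as a block 4606 genes differed between day 2 and control cortex (2693 higher, 1913 lower), 2326 between day 2 and day 6, and 3095 between cortex and skull. Of the genes named, Rgs5 (adjusted p = 0.00875), Hapln1 (0.0359), Il1rn (0.0402) and Cxcl12 (0.0444) passed under the block and Nfkbib did not (0.0505). Depth limits genes near 0: genes such as Il10 and Ly6g could not be tested.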
